A study of Homo sapiens with 10 samples.

Results

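CFPAC-1 cells that were still alive after 24 h with 10 µM imidazole ketone erastin (IKE) were compared with CFPAC-1 cells kept in 0.1% DMSO, the solvent control, with 2 RNA libraries in each group. The description covers the genes with at least 1 FPKM (fragments scaled to transcript length and library size) in at least 2 of these 4 libraries, which were 12316 of the 20289 genes in the table. The series also holds PANC-1, another pancreatic ductal adenocarcinoma line, with 2 libraries in 0.1% DMSO and 4 after 24 h with 1 µM IKE, so 4 of its 10 libraries are CFPAC-1. CFPAC-1 is an established human line grown from a liver metastasis of a pancreatic ductal adenocarcinoma of a patient with cystic fibrosis. Each line is a single cell line, and the labels name no genetic change made in either. Dead cells and debris were removed before RNA was taken, so a change inside each cell and a change in which cells were left cannot be told apart. In such bulk RNA, fewer cells of one kind and less RNA per cell cannot be told apart either. The labels call the replicates bioreplicates but do not say whether they were separate cultures. Each p-value reflects the spread within groups of the 10 libraries of both lines, and that spread may be technical.

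IKE blocks system xc-, the SLC7A11 and SLC3A2 exchanger, which imports cystine and exports glutamate. Cystine is reduced to cysteine, which is needed to make glutathione, and the selenoenzyme GPX4 uses glutathione to repair peroxidised membrane lipids. Without it, iron-dependent lipid peroxidation can kill the cell by ferroptosis. Lack of an amino acid is also known to raise translation of the transcription factor ATF4 through phosphorylation of eIF2alpha, and ATF4 turns on genes for amino acid synthesis, uptake and tRNA charging. NRF2, the product of NFE2L2, is a second factor of the response to oxidants and electrophiles and drives genes of glutathione, NADPH and quinone metabolism.

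The libraries are called DMSO 1, DMSO 2, IKE 1 and IKE 2 by line and replicate number, and those of CFPAC-1 are meant where no line is named. The FPKM of the 4 CFPAC-1 libraries summed to between 405937 and 416406, and 12198 to 12248 genes reached 1 FPKM in each. Replicates correlated over genes at Pearson r = 0.9937 with DMSO and 0.9945 with IKE, which describes the libraries and is not a test over independent units. RPS29 and PTPRD together took 3.81% of the FPKM of DMSO 1 and 5.68% to 6.77% in the other 3 libraries. The values are FPKM rounded to 2 decimals, and the sequencing depth behind them is unknown. Of 10 pancreatic duct markers, 9 were above 1 FPKM, led by KRT8 at 2141 to 2773 FPKM and KRT19 at 2006 to 2228. CFTR, a defining duct channel, was below 1 FPKM in all 4 libraries (0.59 to 0.93), and so is not among the described genes. Summed duct markers were 7406 and 7052 FPKM with DMSO and 6571 and 6489 with IKE, lower in both IKE libraries. That sum is made up mostly of KRT8, KRT18 and KRT19, and the markers did not move together. Log2 changes (IKE minus DMSO) were below 0 for KRT8 (-0.26), MUC1 (-0.26), KRT19 (-0.13), KRT18 (-0.09) and EPCAM (-0.03). They were above 0 for KRT7 (0.12), CLDN4 (0.09), SOX9 (0.07) and CDH1 (0.005). None of these markers passed the test. SMAD4, which is deleted in CFPAC-1, was at 0.00 to 0.11 FPKM here and at 38.5 to 46.7 in PANC-1 (it was picked as a check after its values were seen). Markers of islets (4 of 4) were at 0 and acinar markers summed to at most 0.27 FPKM. Vimentin (VIM), often called mesenchymal, stood at 529 to 607 FPKM. Of 6 fibroblast markers 1 reached 1 FPKM in any of the 4 libraries (COL1A1, 3.56 to 5.64), PECAM1 was the 1 of 3 endothelial markers that did (18.5 to 21.3), and of 5 leukocyte markers CD14 (11.2 to 14.7) and LYZ (20.4 to 26.1) did while the pan-leukocyte gene PTPRC stayed at or below 0.02.

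Most genes changed little. The median log2 change of the 12316 genes, IKE minus DMSO on the log2(FPKM + 1) scale, was -0.00, and 77.6% of them lay within 0.2 of 0. In limma's moderated test, with Benjamini-Hochberg adjustment over 13077 genes and a threshold of 0.05, 172 of the 12316 genes were called (1.4%), of which 112 rose (0.909%) and 60 fell (0.487%). Over all genes tested 1.32% were called. At an unadjusted p under 0.05, 826 of the described genes were up (6.71%) and 911 down (7.4%), and 6.5% of all genes tested were up. These percentages are the background for every list below. The 112 risen genes had a median change of 0.72, and 29 of them rose by 1 or more on the log2 scale. The 60 fallen genes had a median change of -0.54, and 4 fell by 1 or more. Risen genes held 1.27% of all FPKM with DMSO and 2.01% with IKE, and fallen genes 1.02% and 0.733%. With 2 libraries a group, IKE and DMSO values did not overlap in 5923 of the genes (48.1%), so that separation alone marks no gene. Leaving out 1 CFPAC-1 library leaves 1 library in its group, so the spread then comes mostly from PANC-1. A call is described as kept when it also passed with each of the 4 CFPAC-1 libraries left out in turn. That held for 54 of the risen and 10 of the fallen genes, and the risen numbered 79 without DMSO 1, 65 without DMSO 2, 70 without IKE 1 and 68 without IKE 2. The fallen numbered 30, 20, 36 and 18 in the same order.

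**Figure D1:**
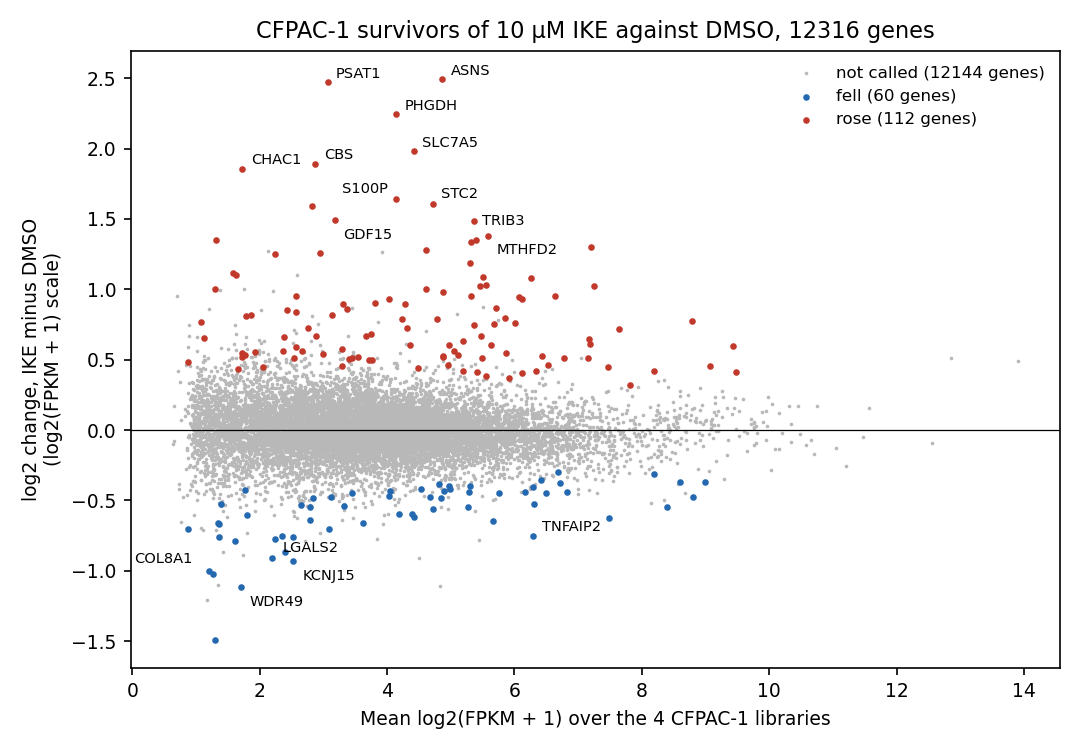
Log2 change (IKE minus DMSO, log2(FPKM + 1) scale) against the mean log2(FPKM + 1) over the 4 CFPAC-1 libraries for 12316 genes. The 112 risen genes (red) reach 2.50 for ASNS, and the 60 fallen genes (blue) reach -1.49 for AC005832.4.

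Genes near the limit of the 1 FPKM rule were at the floor of the described set. Just inside the 1 FPKM rule stood RWDD2A (1.00, 0.91, 1.05 and 0.87 FPKM in DMSO 1, DMSO 2, IKE 1 and IKE 2) and CUBN (1.12, 1.00, 0.43 and 0.53), and just outside it SNPH (0.83, 0.87, 1.02 and 0.99) and MATN2 (0.99, 1.23, 0.87 and 0.94). Of the described genes, 58 were under 1 FPKM in both DMSO libraries and 27 in both IKE libraries, and 6 and 3 of these were called. They passed the rule through the group in which they were higher. Of the called genes named below, this applies to CHAC1, JDP2 and ABCC2, which passed through the IKE libraries. It also applies to COL8A1, IRAG2 and DDC, which passed through the DMSO libraries. Values of the 4 libraries are given below in the order DMSO 1, DMSO 2, IKE 1 and IKE 2.

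Enzymes that make serine and asparagine had the largest rises. ASNS (ENSG00000070669, chr7:97852118-97872542 on GRCh38), which makes asparagine from aspartate and glutamine, stood at 11.5, 11.1, 64.2 and 72.6 FPKM. Both IKE libraries were far above both DMSO libraries, a log2 change of 2.50 ± 0.11 (SE; adjusted p = 4.05e-07). PSAT1 (ENSG00000135069, chr9:78297143-78330093), the transaminase of serine synthesis, stood at 2.38, 2.73, 18.1 and 19.4 FPKM (2.47 ± 0.11, adjusted p = 4.05e-07). PHGDH (ENSG00000092621, chr1:119648411-119744226), the first enzyme of that pathway, stood at 7.62, 6.61, 35.7 and 39.0 FPKM (2.24 ± 0.10, adjusted p = 4.05e-07). The 3 genes were low in both controls and high in both IKE libraries, and these 3 were the described genes that rose by 2 or more. MTHFD2, the mitochondrial folate enzyme, stood at 27.6, 30, 79.1 and 74.2 FPKM and rose by 1.38 (adjusted p = 4.14e-06).

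Of 15 described serine, glycine and one-carbon enzymes 6 rose and 0 fell, and the median of the 15 was 0.08. All 3 enzymes of serine synthesis rose, PSPH by 0.90, as did the mitochondrial SHMT2 by 1.02. The lowest of the 15 was TYMS, of thymidylate synthesis (-0.27). The smallest called rise was that of MTHFD1L (0.57), which lost its call without any 1 of the 4 CFPAC-1 libraries (adjusted p from 0.0595 to 0.195). Of 22 enzymes of asparagine, proline, glutamate and aspartate 4 rose and 0 fell with a median of -0.00. Besides ASNS they were PYCR1, the last step of proline synthesis (15.9, 16.7, 32.8 and 34.5 FPKM, 1.00), PCK2, the mitochondrial PEP carboxykinase (13.1, 16.6, 37.3 and 37.2 FPKM, 1.28), and the alanine transaminase gene GPT2 (0.86), and these 4 kept their calls.

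Cystathionine synthesis joins methionine to cysteine. CBS, its first enzyme, stood at 3.02, 2.61, 12.6 and 13.7 FPKM and rose by 1.89 ± 0.08 (adjusted p = 4.05e-07). CBSL, a near-identical copy of CBS, stood at 3.16, 2.98, 11.3 and 11.2 FPKM (1.59), and reads could have been split between the copies, so the level of either alone is uncertain. CTH, which releases cysteine from cystathionine, stood at 3.30, 1.53, 5.90 and 5.18 FPKM (0.99 ± 0.22) and did not pass (adjusted p = 0.0602). CTH passed without CFPAC-1 DMSO 1 (1.37, adjusted p = 0.0111), with at least 5 FPKM asked of 2 libraries (0.0417) and with quantile normalization (0.0378). CBS was the 1 risen gene among 15 methionine and transsulfuration enzymes (median 0.08), 2 without DMSO 1.

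Carriers of amino acids rose in part. SLC7A5 (ENSG00000103257, chr16:87830023-87869488), the leucine and tyrosine exchanger LAT1, stood at 10.2, 9.41, 40.4 and 42.9 FPKM and rose by 1.98 ± 0.09 (adjusted p = 6.60e-07). Its heavy chain SLC3A2, which it shares with SLC7A11, stood at 67.5, 74.1, 135 and 141 FPKM (0.96, adjusted p = 3.39e-04). SLC7A11 itself, the cystine carrier that IKE blocks, stood at 39.5, 40.5, 68.8 and 70.1 FPKM. Its groups did not overlap, but its change of 0.78 ± 0.18 did not pass (adjusted p = 0.0593). SLC7A11 passed in the fit of CFPAC-1 alone (adjusted p = 0.0146), with quantile normalization (0.0441), with at least 5 FPKM asked of 2 libraries (0.0448), and without PANC-1 IKE 1 (0.0459), IKE 2 (0.0268) or IKE 4 (0.0431). The glutamine carrier SLC1A5 stood at 52.0, 51.0, 111 and 109 FPKM (1.08), the glycine carrier SLC6A9 at 1.01, 1.2, 3.58 and 3.45 (1.10), and the cationic carrier SLC7A1 at 10.7, 11, 21.3 and 22.0 (0.93). In all, 7 of 21 described carriers rose and 0 fell, with a median of 0.23.

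Among tRNA synthetases, the enzymes that load amino acids on tRNA, the calls were in the cytosolic ones, and the difference between the 2 lists was not tested. Of 21 cytosolic ones 10 rose and 0 fell (median 0.25), and 9 of them kept their calls. GARS1 stood at 24.7, 25.4, 59.3 and 57.3 FPKM (1.19, adjusted p = 2.98e-06), AARS1 at 30.6, 29.8, 64.5 and 66.0 (1.09, adjusted p = 8.49e-06) and YARS1 at 27.7, 27.8, 53.3 and 56.4 (0.96, adjusted p = 4.03e-05). For GARS1, AARS1 and YARS1 both IKE libraries lay well above both controls. Of the 17 mitochondrial synthetases 0 passed in either direction (median 0.01; 1 up and 1 down at an unadjusted p under 0.05). Their highest member by level, IARS2, stood at 33.6, 32.9, 32.7 and 32.7 FPKM.

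The mRNA of ATF4 itself was higher with IKE. ATF4 stood at 91.4, 94.0, 232 and 228 FPKM and rose by 1.302 ± 0.07 (adjusted p = 2.98e-06). TRIB3, a pseudokinase that dampens this response, stood at 23.4, 23.8, 67.7 and 67.9 FPKM (1.48, adjusted p = 3.91e-05). CEBPG, a dimer partner of ATF4, stood at 4.30, 4.19, 7.10 and 8.24 FPKM (0.72, adjusted p = 0.0017), a call it did not hold in the fit of CFPAC-1 alone (0.116). JDP2, a repressor of the AP-1 family, stood at 0.28, 0.89, 2.55 and 3.43 FPKM (1.35). These were the 4 risen of 20 stress factors and eIF2alpha kinases (median 0.21), and 0 fell. The stress factor genes ATF3 (2.28, 0.98, 2.37 and 2.07 FPKM; 0.34, adjusted p = 0.728) and DDIT3 (18.9, 18.5, 26.4 and 21.4 FPKM; 0.33, adjusted p = 0.218) did not pass.

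Stress effectors moved with them, 7 of 19 up and 0 down with a median of 0.40. CHAC1 (ENSG00000128965, chr15:40952962-40956519), which degrades glutathione, stood at 0.86, 0.63, 5.44 and 5.19 FPKM and rose by 1.86 ± 0.16 (adjusted p = 1.36e-04), a scale on which a gene this low in the controls is understated. The secreted STC2 stood at 13.98, 14.1, 44.9 and 44.8 FPKM (1.61, adjusted p = 2.98e-06), and the cytokine GDF15 at 4.90, 3.97, 14.3 and 14.2 (1.49, adjusted p = 2.39e-05). The peptide hormone gene ADM2 rose by 1.12, the translation repressor gene EIF4EBP1 by 0.98 and DDIT4, an inhibitor of mTORC1, by 0.94. SESN2, another mTORC1 inhibitor, stood at 2.94, 3.11, 6.13 and 6.39 FPKM (0.85, adjusted p = 0.0105) and lost its call without any 1 CFPAC-1 library (adjusted p from 0.0644 to 0.0974).

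**Figure D2:**
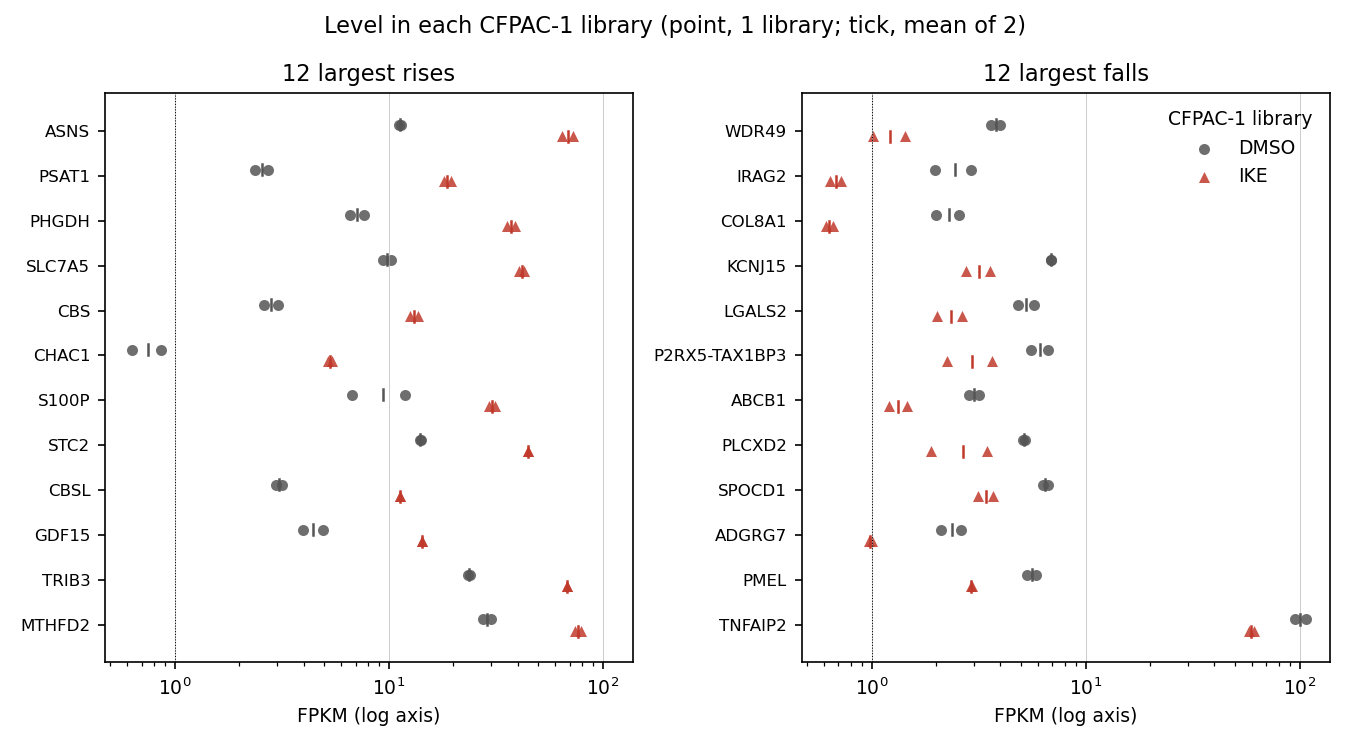
FPKM in each CFPAC-1 library (log axis) for the 12 largest rises and the 12 largest falls among called genes with a mean log2(FPKM + 1) of at least 1 (clone names left out). Points are single libraries, ticks the mean of 2, grey circles DMSO and red triangles IKE. The 24 genes were chosen among those whose groups did not overlap, as in 48.1% of described genes, so the gaps are no result.

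ATF4 is known to bind, with C/EBP partners, the C/EBP-ATF response element (CARE). Its letters, taken here as TGATGNAA on either strand, were looked for in RefSeq promoters (GRCh38.p14, 250 bases before to 50 after each start). Of all 35116 RefSeq promoters of this length 3.62% held them. Counted by gene, 4.46% of all 27305 genes with a promoter had a match in at least 1, and 2.75% of the 9957 described ones. Among risen genes 18 of 91 did (19.8%), and among those that kept their call 14 of 41 (34.1%), against 3 of 49 fallen genes (6.12%). A match is a description of letters and not a binding site. Before the start, 9 of the 14 had a match, and 6 of these are shown as examples from the gene groups described here. Each is on the gene's strand, 5′ to 3′, with the match in capitals and with at most 30 bases where a longer run would touch an exon in GENCODE 29:
ASNS (chr7:97872458-97872487, minus): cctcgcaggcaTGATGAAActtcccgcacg
CHAC1 (chr15:40953251-40953280, plus): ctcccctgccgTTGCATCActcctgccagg
S100P (chr4:6693744-6693773, plus): acaacgatgcaTTTCATCAgaactgagcac
JDP2 (chr14:75427966-75428021, plus): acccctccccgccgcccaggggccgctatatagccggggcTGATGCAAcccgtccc
SLC1A5 (chr19:46784893-46784922, minus): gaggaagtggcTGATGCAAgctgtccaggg
CEBPG (chr19:33374031-33374112, plus): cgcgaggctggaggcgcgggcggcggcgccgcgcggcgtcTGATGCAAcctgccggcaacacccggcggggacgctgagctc
In CHAC1 and S100P the letters read on the opposite strand. The ASNS match began 68 bases before the start and that of JDP2 16 bases before it. No match was found for PSAT1, PHGDH or ATF4. Of the 112 risen genes 91 had a promoter to search, so a missing match can also be a missing promoter.

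The antioxidant response element (ARE) bound by NRF2 was searched in the same way as TGACNNNGC. It was in 13.3% of all promoters. Counted by gene, 16.1% of all genes with a promoter had a match and 19.4% of described genes. Of risen genes 27.5% had a match, and of those that kept their call 36.6%. So did 30.6% of fallen genes and 8 of 24 NRF2 targets (33.3%). Matches of CARE and ARE overlapped in 0 promoters, but their letters rarely allow it. The CHR letters given below cannot share a base with either, so the lack of overlap says nothing about the promoters.

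**Figure D3:**
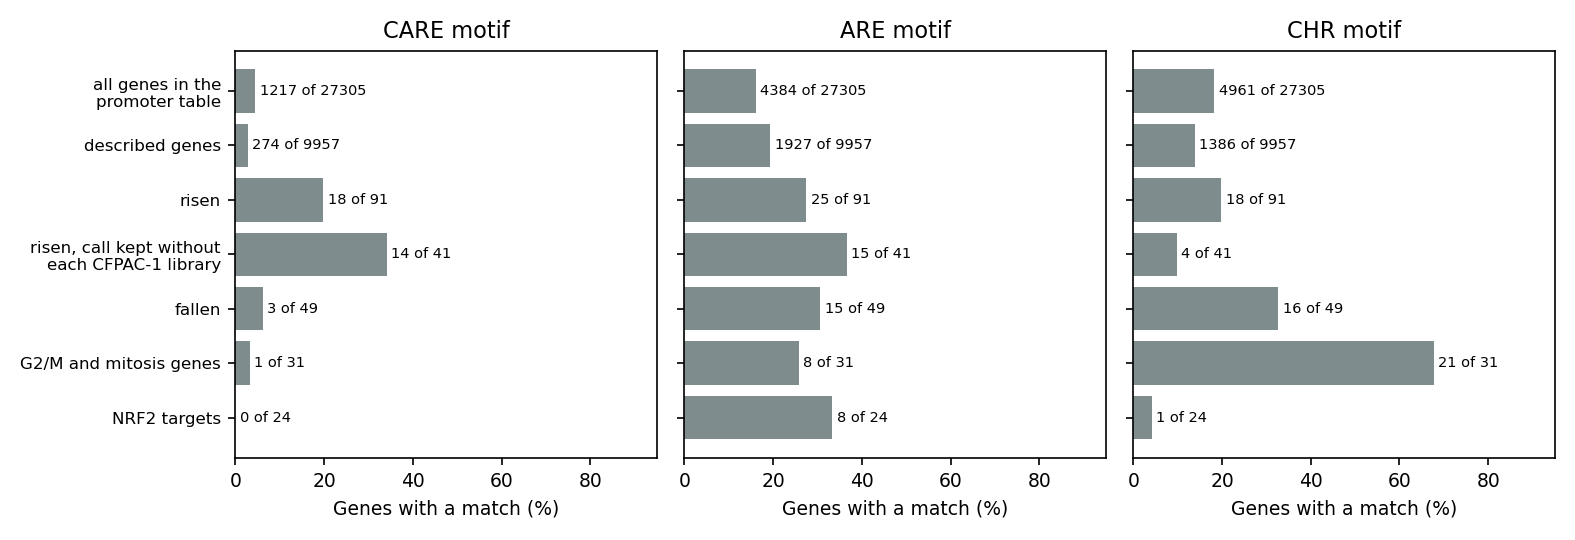
Share of genes (%) with at least 1 match of each motif in a RefSeq promoter, with the number of genes beside each bar. CARE reaches 34.1% in risen genes that kept their call against 2.75% in described genes, and CHR 67.7% in G2/M and mitosis genes against 13.9%.

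NRF2 targets held more called genes than any other of the 50 lists. Of 34 described targets 18 rose and 0 fell, with a median of 0.54, and 32 of the 34 were above 0. Without DMSO 1 or DMSO 2, IKE 1 or IKE 2, the risen numbered 10, 9, 10 and 12 in turn. AKR1B10, an aldo-keto reductase, stood at 24.1, 26.9, 67.7 and 65.0 FPKM (1.35, adjusted p = 5.55e-05), a call lost with a pseudocount of 0.1 (0.131). GCLC, the catalytic subunit of the first enzyme of glutathione synthesis, stood at 24.9, 23.4, 67.1 and 58.5 FPKM and rose by 1.34 ± 0.11 (adjusted p = 9.04e-05). Its partner GCLM stood at 4.29, 5.41, 8.12 and 9.57 FPKM, higher in both IKE libraries, but did not pass (0.75, adjusted p = 0.0939). The quinone reductase NQO1 stood at 156, 154, 257 and 254 FPKM (0.72, adjusted p = 2.16e-04), and the thioredoxin reductase TXNRD1 at 47.1, 49.4, 85.3 and 80.02 (0.76, adjusted p = 0.00189). NFE2L2, the NRF2 gene, stood at 64.2, 62.7, 72.7 and 69.2 FPKM and did not pass (0.16, adjusted p = 0.306). AKR1C1, AKR1C2 and AKR1C3 were also among the 18, but are near-identical copies among which reads could be split.

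HMOX1, the haem oxygenase gene and a classic NRF2 target, was low. It stood at 0.84, 0.96, 1.52 and 1.92 FPKM, and its change of 0.51 ± 0.31 did not pass (adjusted p = 0.532). In PANC-1 its change was 2.67, and the difference between the lines, -2.15 ± 0.41, missed the threshold as well (adjusted p = 0.0588).

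Most glutathione enzymes did not pass the test. Of 30 described, 3 rose and 0 fell (median 0.07): GCLC, CHAC1 and the gut-type peroxidase GPX2 (0.46), which lost its call without any 1 CFPAC-1 library (adjusted p from 0.144 to 0.242), and without PANC-1 DMSO 1 (0.0659) or DMSO 2 (0.0661) or IKE 1 (0.0621), IKE 3 (0.055) or IKE 4 (0.0606). GPX4 stood at 95.7, 87.0, 92.0 and 85.2 FPKM, overlapping between groups (-0.04 ± 0.09, adjusted p = 0.906). Of 17 thioredoxin and peroxiredoxin genes TXNRD1 and the sulfiredoxin SRXN1 (0.79) rose. SRXN1 lost its call without any 1 CFPAC-1 library (adjusted p from 0.0767 to 0.0988).

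Of 30 known ferroptosis suppressors 6 rose and 0 fell (median 0.12), 4 without any 1 CFPAC-1 library. Besides SLC3A2, NQO1, TXNRD1, FTL and FTH1, they included the desaturase gene SCD, which makes monounsaturated fatty acids and stood at 469, 446, 637 and 619 FPKM (0.46, adjusted p = 0.0185). SCD lost its call without any 1 CFPAC-1 library (adjusted p from 0.0862 to 0.155). AIFM2, the coenzyme Q reductase FSP1, stood at 5.91, 7.01, 7.99 and 7.81 FPKM and did not pass (0.26, adjusted p = 0.310). Of 30 drivers 3 rose and 0 fell (median 0.01): CHAC1, SLC1A5 and the transferrin receptor TFRC. ACSL4, which puts polyunsaturated fatty acids into membranes, stood at 78.6, 82.9, 84.1 and 80.2 FPKM (0.02 ± 0.07, adjusted p = 0.932).

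Iron storage genes were higher. The ferritin light chain FTL stood at 339, 332, 567 and 582 FPKM (0.77 ± 0.07, adjusted p = 1.23e-04). The heavy chain FTH1 stood at 570, 554, 809 and 898 FPKM (0.60 ± 0.11, adjusted p = 0.0178), and TFRC, which takes iron in, at 50.8, 53.2, 67.3 and 67.7 (0.37 ± 0.07, adjusted p = 0.0185). These were the 3 risen of 36 iron and haem genes (median 0.03). FTL kept its call, while FTH1 and TFRC each lost theirs without any 1 CFPAC-1 library (adjusted p from 0.0615 to 0.187 for FTH1 and from 0.0757 to 0.141 for TFRC). FTH1 also missed the threshold with no low-value filter (0.0527).

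NADPH-making enzymes and lipid genes had smaller changes. Of 15 pentose phosphate and NADPH genes 4 rose and 0 fell (median 0.20), among them PGD (0.42), ME1 (0.56) and TKT (0.45). The risen numbered 1 without DMSO 2 and 2 without any other CFPAC-1 library. Of 20 fatty acid genes SCD and the acyl-CoA ligase ACSL1 rose (0.51), and neither kept its call. ACSL1 lost it without any 1 CFPAC-1 library (adjusted p from 0.12 to 0.216) and without PANC-1 DMSO 1 (0.0508) or DMSO 2 (0.0512). Of 25 cholesterol genes 0 passed with limma, and at an unadjusted p under 0.05 11 were up and 0 down.

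Among targets of the hypoxia factors 4 of 24 rose and 0 fell (median 0.22), and 23 of the 24 were above 0. DDIT4 stood at 46.0, 49.6, 90.7 and 94.8 FPKM (0.94 ± 0.12, adjusted p = 0.00226). The angiogenic factor gene VEGFA stood at 92.2, 121, 216 and 215 FPKM (1.02 ± 0.16, adjusted p = 0.00839). The other two were the collagen hydroxylase P4HA1 (0.42) and the carbonic anhydrase CA9 (0.81). P4HA1 and CA9 lost their calls without any 1 CFPAC-1 library (adjusted p from 0.0915 to 0.178 and from 0.0503 to 0.173), and VEGFA without DMSO 1 (0.0897), IKE 1 (0.0673) or IKE 2 (0.0809).

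Other stress lists showed 1 or no risen gene. HERPUD1, of protein degradation at the endoplasmic reticulum, rose by 0.60 (40.6, 37.9, 58.5 and 61.7 FPKM), 1 of 25 unfolded protein response genes (median 0.11). It lost its call without DMSO 2 (adjusted p = 0.0754) or IKE 2 (0.0843). HSPA8 rose by 0.42 (254, 250, 336 and 339 FPKM), 1 of 20 cytosolic heat shock genes, and lost its call without any 1 CFPAC-1 library (0.0907 to 0.135) and with quantile normalization (0.0732). SQSTM1, the autophagy receptor p62, stood at 117, 111, 183 and 176 FPKM and rose by 0.65 (adjusted p = 0.00242), the 1 risen of 28 autophagy and lysosome genes (median 0.01). MYC stood at 39.8, 33.7, 52.98 and 52.2 FPKM (0.51 ± 0.09, adjusted p = 0.0206), the 1 risen of 26 immediate early genes. MYC lost its call without DMSO 2 (0.168), IKE 1 (0.139) or IKE 2 (0.131). CDKN1A, the p21 gene, did not pass (4.72, 4.90, 6.55 and 7.57 FPKM; 0.47, adjusted p = 0.0823), though it did with quantile normalization (0.51, 0.048). Of the 19 p53 targets and the 25 apoptosis regulators 0 passed with limma (at an unadjusted p under 0.05, 3 up and 0 down, and 3 up and 5 down).

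**Figure D4:**
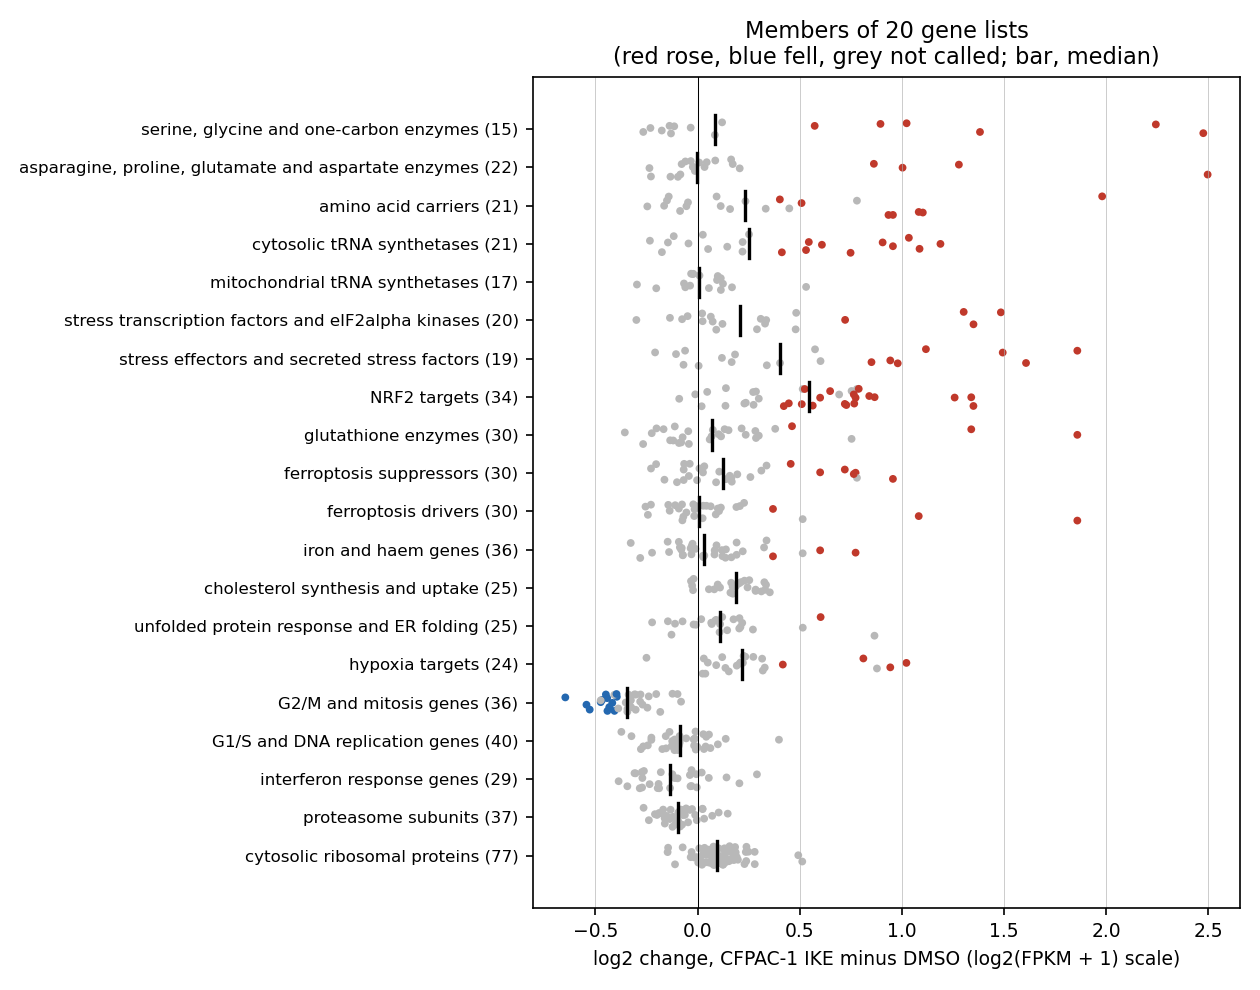
Log2 change (IKE minus DMSO, log2(FPKM + 1) scale) of each described member of 20 gene lists, with the number of members in brackets. Black bars are medians, from -0.34 for G2/M and mitosis genes to 0.54 for NRF2 targets, and red and blue points passed the test.

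Genes of mitosis were lower together. Of 36 described G2/M and mitosis genes 13 fell and 0 rose, all 36 had changes below 0, and the median was -0.34. CCNB1, the mitotic cyclin B1, stood at 84.1, 81.4, 60.8 and 60.6 FPKM (-0.44 ± 0.07, adjusted p = 0.0118), and CCNB2 at 43.4, 45.8, 32.2 and 32.8 (-0.44 ± 0.07, adjusted p = 0.0119). CDC20, an activator of the anaphase-promoting complex, had the lowest change of the list (65.0, 59.5, 38.3 and 40.5 FPKM, -0.65). The size was small and the calls were not kept: 1 fell without DMSO 1, 1 without DMSO 2, 2 without IKE 1 and 0 without IKE 2. CCNB1 lost its call without any 1 CFPAC-1 library (adjusted p from 0.0696 to 0.0965) and CCNB2 without DMSO 2 (0.107), IKE 1 (0.0911) or IKE 2 (0.0856). The list's median in PANC-1 was -0.37, and 0 of the 36 differed between the lines in limma. Of 40 G1/S and DNA replication genes 0 passed (1 up and 8 down at an unadjusted p under 0.05) with a median of -0.09, where PCNA stood at 116, 104, 103 and 100.8 FPKM.

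Promoters of mitotic genes are known to carry the cell cycle genes homology region (CHR), here TTTGAA on either strand. It was in 15.2% of all promoters. Counted by gene, it was in 18.2% of all genes with a promoter, 13.9% of described, 19.8% of risen and 32.7% of fallen genes. Of 31 G2/M and mitosis genes with a promoter 21 had it (67.7%). Of the 11 called ones with a promoter 6 did. Matches of the called genes ANLN (first bases at -26 and -20 from the start) and DLGAP5 (-138 and -109) are not shown. CCNB2, CDC20, KIF23 and MKI67 are shown as examples of called genes of the list, drawn as above with 1 match each in capitals:
CCNB2 (chr15:59105105-59105134, plus): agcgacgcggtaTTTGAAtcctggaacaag
CDC20 (chr1:43358904-43358933, plus): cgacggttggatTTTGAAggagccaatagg
KIF23 (chr15:69414282-69414311, plus): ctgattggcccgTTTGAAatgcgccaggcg
MKI67 (chr10:128126425-128126510, minus): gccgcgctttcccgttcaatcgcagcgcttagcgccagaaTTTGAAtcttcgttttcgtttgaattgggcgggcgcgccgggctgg
The match of CCNB2 began 29 bases before the start, that of CDC20 65, that of KIF23 55 and that of MKI67 47. MKI67 holds a second match, which began 29 bases before the start and stands in lower case in the same stretch. CDC20 also holds a second match, on the opposite strand (first base at -178 from the start), which is not shown.

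The largest falls were in genes of low level. WDR49 stood at 3.99, 3.62, 1.43 and 1.02 FPKM (-1.12 ± 0.13, adjusted p = 8.75e-04). IRAG2, a membrane protein of the endoplasmic reticulum, stood at 1.97, 2.93, 0.72 and 0.64 (-1.02), the short-chain collagen gene COL8A1 at 2.57, 2.01, 0.61 and 0.66 (-1.004, adjusted p = 3.48e-04), and the potassium channel KCNJ15 at 6.93, 6.90, 3.59 and 2.75 (-0.93, adjusted p = 0.00128). IRAG2 and COL8A1 were at or below 0.05 FPKM in every PANC-1 library, as was ADGRG7, so PANC-1 added little spread to their tests. For them a kept call is weak support. The adhesion receptor ADGRG7 (2.1, 2.63, 1.0 and 0.97 FPKM, -0.76) and the melanosome protein gene PMEL (5.84, 5.35, 2.9 and 2.94 FPKM, -0.75) fell as well. These 6 kept their calls when CFPAC-1 libraries were left out, but none of the 6 passed in the fit of CFPAC-1 alone (adjusted p from 0.0664 to 0.113), and WDR49 (0.184), KCNJ15 (0.113) and ADGRG7 (0.0611) missed the threshold with a pseudocount of 0.1. AC005832.4, a gene with a clone name, had the lowest change of all called genes, -1.49, and lost its call without DMSO 1 (0.159), DMSO 2 (0.0616) or IKE 2 (0.0809).

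The other 6 of the 12 largest falls did not keep their calls. TNFAIP2, a target of NF-kB, was the most abundant at 95, 107, 61.1 and 58.0 FPKM (-0.75, adjusted p = 0.00541), and missed the threshold without DMSO 2 (0.074) or IKE 2 (0.0767). It was the 1 fallen of 23 NF-kB targets and cytokines (median -0.14). The drug exporter ABCB1 stood at 3.18, 2.86, 1.46 and 1.2 FPKM (-0.79, adjusted p = 0.0141), and was lost without DMSO 1 (0.101), DMSO 2 (0.0616) or IKE 2 (0.123). Among 15 ABC exporters, ABCC2 (0.77) and the cholesterol exporter ABCA1 (0.50) rose. ABCC2 was lost without DMSO 1 (0.147), DMSO 2 (0.0842) or IKE 2 (0.178), and ABCA1 without any 1 CFPAC-1 library (adjusted p from 0.115 to 0.185). SPOCD1 (-0.76) and the galectin LGALS2 (-0.91) lost their calls without any 1 CFPAC-1 library (adjusted p from 0.0548 to 0.168 and from 0.0644 to 0.219), LGALS2 also without PANC-1 IKE 3 (0.051). The readthrough locus P2RX5-TAX1BP3 (-0.87), which shares sequence with its parent genes, was lost without CFPAC-1 DMSO 1 (0.215) or DMSO 2 (0.0999), IKE 1 (0.206), PANC-1 DMSO 1 or DMSO 2 (0.0532 each) or IKE 3 (0.0521). PLCXD2 (-0.78, adjusted p = 0.0449) kept its call when IKE 1 was left out and lost it in the 9 fits without another library (0.0568 to 0.181).

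Genes of epithelial identity showed few calls. S100P, a calcium-binding protein abundant in pancreatic carcinoma, stood at 6.73, 11.95, 31.2 and 29.3 FPKM (1.64 ± 0.21, adjusted p = 0.00201), and did not pass in the fit of CFPAC-1 alone (0.126). With S100A14 (0.63) it made 2 risen of 11 S100 genes. S100A14 was lost without DMSO 1 (0.21), IKE 1 (0.134) or IKE 2 (0.203), PANC-1 DMSO 1 (0.05) or IKE 3 (0.0517). The hair keratin gene KRT81 stood at 2.2, 1.95, 6.38 and 6.26 FPKM (1.25, adjusted p = 3.48e-04), the 1 risen of 13 keratins. KRT81 and KRT86 are near-identical neighbours, so reads could be split between them. FN1, fibronectin, stood at 23.5, 23.4, 34.6 and 33.6 FPKM (0.52, adjusted p = 0.0488), 1 of 10 mesenchymal genes. FN1 was lost without any 1 CFPAC-1 library (0.193 to 0.222), and without PANC-1 DMSO 1 (0.0728) or DMSO 2 (0.0725) or IKE 1 (0.0706) or IKE 4 (0.0508). In 21 duct transport genes KCNJ15 fell and CA9 rose, COL8A1 was the 1 fallen of 29 collagens, laminins and integrins, and VEGFA the 1 risen of 20 growth factor genes. Of 23 epithelial junction genes, 16 mucin and secretory genes, 11 endoderm factors and 15 TGF-beta genes 0 passed in limma, with medians of -0.01, -0.06, -0.05 and 0.03. At an unadjusted p under 0.05, these lists had 0, 1, 0 and 1 up and 1, 3, 0 and 2 down. JUP stood at 273, 261, 259 and 266 FPKM and AGR2 at 361, 379, 380 and 369.

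Large housekeeping lists gave 0 calls in limma. They were 77 ribosomal proteins (median 0.10; 6 up and 0 down at an unadjusted p under 0.05), 75 nuclear respiratory chain subunits (-0.04; 1 and 5), 13 mitochondrially encoded mRNAs (-0.04; 0 and 0), 37 proteasome subunits (-0.09; 0 and 4), 32 ribosome biogenesis genes (-0.00; 1 and 2) and 19 glycolysis genes (0.09; 2 and 0). The same held for 57 histones (-0.10; 0 and 6), 29 interferon response genes (-0.13; 0 and 7), 15 HLA class I and peptide loading genes (-0.13; 0 and 4), 16 ESCRT-III genes (-0.01; 0 and 2), 20 genes of YAP and TAZ (0.02; 1 and 2) and 11 metallothioneins and zinc carriers (0.20; 3 and 1). Several of these lists leaned to 1 side. Of the 29 interferon response genes 24 had changes below 0, and of the 37 proteasome subunits 31. So did 47 of the 57 histones and 14 of the 15 HLA class I and peptide loading genes. Of the 77 ribosomal proteins 69 had changes above 0. YAP1 stood at 70.9, 68.9, 70.7 and 70.6 FPKM. Its upstream inhibitor NF2 stood at 75.3, 70.6, 60.2 and 55.8 FPKM (-0.33 ± 0.07, adjusted p = 0.0546). NF2 passed with median-ratio scaling (0.0411), with at least 5 FPKM in 2 libraries (0.0425), with the CFPAC-1 filter (0.0477) and without PANC-1 IKE 2 (0.0444).

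The response was set against that of PANC-1 survivors by testing the difference of the changes itself. PANC-1 received 1 µM and CFPAC-1 10 µM, so line and dose cannot be told apart. The difference passed for 43 of the described genes (0.349%), 29 with a higher change in CFPAC-1 (0.235%) and 14 with a lower one (0.114%). Leaving out a library left 13 (without CFPAC-1 IKE 2) to 59 (without PANC-1 IKE 2), with 22 without CFPAC-1 DMSO 1, 15 without DMSO 2, 23 without IKE 1, and 14 and 17 without PANC-1 DMSO 1 and DMSO 2. The largest of the higher differences was that of SLC7A5. It rose by 1.98 in CFPAC-1 and by 0.38 in PANC-1, where it stood at 75.6 and 71.5 FPKM with DMSO and at 86.3 to 104 with IKE (difference 1.59 ± 0.12, adjusted p = 6.61e-04). In PANC-1 ATF4 stood at 99.7 and 98.8 FPKM with DMSO and at 105 to 123 with IKE, a change of 0.22 that did not pass there (adjusted p = 0.0951; difference 1.08 ± 0.10, adjusted p = 0.00146). The control levels of ATF4 were close in both lines, while SLC7A5 was much lower in CFPAC-1 controls than in PANC-1 controls.

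**Figure D5:**
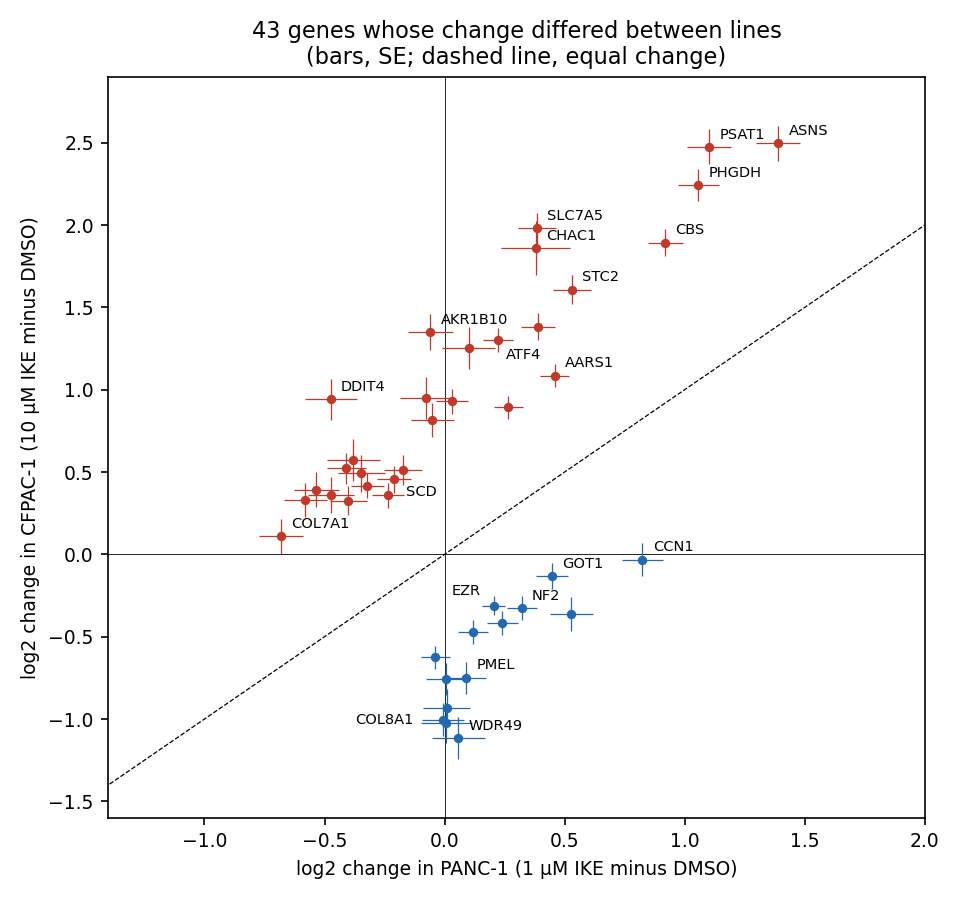
Log2 change in CFPAC-1 (vertical) against PANC-1 (horizontal) for the 43 described genes whose change differed between lines, with SE bars and a dashed line of equal change. The 29 red genes lie above the dashed line, and the 14 blue genes, such as WDR49 with -1.12 against 0.06, lie below it.

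PSAT1 (difference 1.37), PHGDH (1.18), MTHFD2 (0.99) and ASNS (1.11) rose in both lines, with larger log2 changes in CFPAC-1. Their mean levels in DMSO controls were lower in CFPAC-1 than in PANC-1. These were 2.6 against 38.8 FPKM for PSAT1, 7.1 against 30.5 for PHGDH, 28.8 against 117.7 for MTHFD2 and 11.3 against 50.1 for ASNS. With IKE the mean of each was also lower in CFPAC-1 than in PANC-1. CBS (0.97), STC2 (1.08), AARS1 (0.63) and CHAC1 (1.48) also differed. ASNS missed the threshold without CFPAC-1 DMSO 2 (0.0549) or IKE 2 (0.0678), CHAC1 without any 1 CFPAC-1 library (0.0542 to 0.0949) or PANC-1 DMSO 2 (0.0804), and AARS1 without any 1 CFPAC-1 library (0.0577 to 0.105) or PANC-1 DMSO 1 (0.0818) or DMSO 2 (0.0859). AKR1B10 rose by 1.35 in CFPAC-1 and was between 0 and 0.12 FPKM in all 6 PANC-1 libraries, so its difference of 1.41 is read on a gene near 0 in that line and missed the threshold with a pseudocount of 0.1 (0.205). DDIT4 rose by 0.94 in CFPAC-1 and fell by 0.47 in PANC-1 (difference 1.42 ± 0.16, adjusted p = 0.00394). Among genes with a lower change, COL8A1 (-0.996, adjusted p = 0.0131), WDR49 (-1.17, 0.0176) and PMEL (-0.84, 0.0199) were at or below 0.76 FPKM in every PANC-1 library, and all 3 missed the threshold with a pseudocount of 0.1 (0.15, 0.286 and 0.11). IRAG2 (-1.03), KCNJ15 (-0.94) and ADGRG7 (-0.76) were at or below 0.15 FPKM in every PANC-1 library, and their differences were also lost with that pseudocount (0.11, 0.286 and 0.205).

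NF2 (-0.65 ± 0.09, adjusted p = 0.0176), the membrane linker gene EZR (-0.52 ± 0.08, 0.0176) and RASSF8 (-0.66 ± 0.10, 0.0199) were expressed in both lines, with changes of opposite sign. In CFPAC-1 EZR (-0.31) and RASSF8 (-0.42) fell, calls lost without any 1 CFPAC-1 library (0.113 to 0.17 and 0.093 to 0.144), and NF2 did not pass. In PANC-1 NF2 rose (0.32, adjusted p = 0.0227), and EZR (0.20, 0.0579) and RASSF8 (0.24, 0.0816) did not pass. EZR stood at 325, 321, 263 and 258 FPKM in CFPAC-1, and at 106 and 106 with DMSO and 117 to 125 with IKE in PANC-1. These differences did not hold in every fit that left out a library. NF2 missed the threshold without CFPAC-1 DMSO 1 (0.0696) or DMSO 2 (0.0549), IKE 2 (0.105) or PANC-1 DMSO 1 (0.0985). EZR missed it without any 1 CFPAC-1 library (0.0694 to 0.107) and without PANC-1 DMSO 1 (0.097) or DMSO 2 (0.0804), and RASSF8 without the same 6 libraries (0.067 to 0.0985). COL8A1 missed it without PANC-1 DMSO 1 (0.0818) or DMSO 2 (0.068). WDR49 missed it without CFPAC-1 DMSO 1 (0.066) or DMSO 2 (0.0549), IKE 2 (0.0826), or PANC-1 DMSO 1 (0.0818) or DMSO 2 (0.0804), and PMEL without any 1 of the 4 CFPAC-1 libraries (0.0549 to 0.0826) and PANC-1 DMSO 1 (0.0941) or DMSO 2 (0.0886). Of the 43 differences, 10 passed in each fit that left out 1 of the 10 libraries, among them those of SLC7A5, ATF4, PSAT1, PHGDH, MTHFD2, AKR1B10, DDIT4, CBS and STC2.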

How the data were processed

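RNA from 10 libraries of 2 pancreatic cancer lines was measured by RNA-seq after rRNA depletion, per the labels' protocols. The authors deposited one table of FPKM values per gene, rounded to 2 decimals, per the file headers. The submitters' processing notes name the tools StringTie 1.3.4, HISAT2 2.1.0, Bowtie2 2.2.8, fastp 0.18.0 and DESeq2, and the build GRCh38. The sources used here state neither their roles nor the annotation nor the use of strand in counting, and overlapping and antisense genes may share reads. A further 9 columns held no values and were not used. Depth is unknown, so no interval from counts is given.

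Groups came from the sample labels. log2(FPKM + 1) of all 10 libraries was fitted with limma 3.58.1 in R 4.3.3 (group means, trend, 6 residual degrees of freedom, 5.1 prior) for the 13077 genes that reached 1 FPKM in 2 or more libraries, with Benjamini-Hochberg adjustment and a threshold of 0.05. The pooled spread uses both lines. All fold changes are on that scale, which understates changes of low genes. The fit was tested on simulated data. The members, the 50 gene lists and the tests were chosen with earlier results of these data known. Named genes are a panel of ferroptosis, ATF4, NRF2 and cell state genes, the 12 largest rises and 12 largest falls among called genes whose groups did not overlap and whose mean log2(FPKM + 1) was at least 1 (clone names left out), up to 3 called members of each list, and 6 differences in each direction; other genes named, including further list members, were chosen after their values were seen. Alternatives were another pseudocount, filters, scalings, a fit of CFPAC-1 alone, a replicate block and leaving out each library. Promoters came from RefSeq (GRCh38.p14), gene positions from GENCODE 29. Values of some genes are not reported here.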

Additional observations from a re-analysis of the deposited data

Results flagged for a closer look

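A different change with IKE in CFPAC-1 (10 µM) than in PANC-1 (1 µM), by limma's test of the difference (adjusted over 13077 genes), marked 23 of the named genes. Line and dose cannot be told apart, and values are log2 changes, CFPAC-1 minus PANC-1. Among genes of amino acid supply and stress the difference was 1.59 for SLC7A5, 1.48 for CHAC1, 1.42 for DDIT4, 1.37 for PSAT1, 1.18 for PHGDH, 1.11 for ASNS, 1.08 for ATF4, 1.08 for STC2, 0.994 for MTHFD2, 0.975 for CBS and 0.628 for AARS1. It was 1.41 for AKR1B10, 1.15 for KRT81 and 0.666 for SCD. KRT81 missed the threshold with a pseudocount of 0.1 (adjusted p = 0.15), without any 1 CFPAC-1 library (0.0522 to 0.0847) and without PANC-1 DMSO replicate 1 (0.0818) or 2 (0.0804). SCD missed it with no low-value filter (0.0547), without any 1 CFPAC-1 library (0.0716 to 0.155) and without PANC-1 DMSO replicate 1 (0.139), DMSO replicate 2 (0.0804) or IKE replicate 4 (0.0591). It was negative for WDR49 (-1.17), IRAG2 (-1.03), COL8A1 (-0.996), KCNJ15 (-0.941), PMEL (-0.841), ADGRG7 (-0.764), RASSF8 (-0.657), NF2 (-0.648) and EZR (-0.516). IRAG2 missed the threshold without IKE replicate 1 (0.0671) or 2 (0.106) of CFPAC-1, and without DMSO replicate 1 (0.1) or 2 (0.094) or IKE replicate 1 (0.0501) of PANC-1. KCNJ15 kept it without CFPAC-1 IKE replicate 1 and PANC-1 IKE replicates 2 and 3, and missed it without any other library (0.0532 to 0.105). ADGRG7 kept it without CFPAC-1 DMSO replicate 1 and missed it without any other library (0.0553 to 0.155).

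In the 4 PANC-1 IKE libraries 1 library stood apart from the other 3 for each of 2 named genes. The gap to the nearest library was 0.852 of the whole range for WDR49, where replicate 3 was at 0.24 FPKM and the others at 0.02 to 0.05, and 0.893 for RASSF8, where replicate 4 was at 48.2 FPKM and the others at 53.8 to 54.5. Chance flags about 1 in 20 groups.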

How the results depend on the processing

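With CFPAC-1 fitted alone, 56 genes were called (50 rose, 6 fell) where the fit of all libraries called 172 (112 and 60). A pseudocount of 0.1 left 38 fallen genes, 28 differences and 7 lower differences, and quantile normalization gave 262 called and 102 fallen. Leaving out 1 library gave 85 to 253 called, 65 to 150 risen and 18 to 103 fallen genes, and 13 to 59 differences, of them 12 to 43 higher and 1 to 17 lower. The highest count, 253, came without PANC-1 IKE replicate 2. Rescaling without RPS29 and PTPRD, chosen after seeing the data, gave 167 called. Same-numbered DMSO and IKE libraries did not deviate together (r = -0.00145 over 13077 genes). That cannot tell whether the numbers pair the libraries, which the labels do not say. With the replicate block 166 were called (109 rose, 57 fell) and 43 differed (26 higher, 17 lower). Among the named changes the block gave CTH a call (0.0358) and took those of LGALS2 (0.0524), P2RX5-TAX1BP3 (0.0526), FN1 (0.075) and the SCD difference (0.053). Of 113 named changes (106 where 5 FPKM was asked of 2 libraries) 0 reversed under the alternatives run. The 113 include genes such as GPX4, ACSL4 and YAP1 that were not called in the main fit. Such genes had no call to lose, so the share lost among the called ones is larger than the counts over 113 show. Of the 113, 27 lost their call in the fit of CFPAC-1 alone, 9 with the pseudocount of 0.1 and 16 to 20 without 1 CFPAC-1 library. The causes were not tested. The depth is unknown, so its limit on low genes cannot be given.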

Other observations

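Some called genes belong to none of the 50 lists and are given here as values, chosen after they were seen, in the order DMSO 1, DMSO 2, IKE 1 and IKE 2. XPOT, which exports tRNA from the nucleus, stood at 13.5, 13.1, 25.01 and 26.1 FPKM and rose by 0.89 (limma adjusted p = 4.34e-05). RBCK1, a subunit of the linear ubiquitin ligase, stood at 50.02, 48.8, 94.4 and 95.6 FPKM (0.93, adjusted p = 7.01e-05). ERRFI1, an inhibitor of the EGF receptor, stood at 39.3, 37.4, 66.1 and 64.5 FPKM (0.75, adjusted p = 3.97e-04). XPOT, RBCK1 and ERRFI1 kept their calls without each CFPAC-1 library.

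Further fallen genes outside the lists that kept their calls included PSME2, a proteasome activator subunit (216, 227, 145 and 141 FPKM, -0.63), ALDH1A3, which makes retinoic acid (406, 402, 285 and 269 FPKM, -0.54), the importin KPNA2 (134, 128, 94.9 and 97.4 FPKM, -0.44) and the decarboxylase DDC (1.54, 1.18, 0.53 and 0.36 FPKM, -0.71).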
